A study of Rattus norvegicus with 16 samples.

Results

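MHC class II antigen presentation was followed in the rat cornea through 8 genes, RT1-Ba, RT1-Bb, RT1-Da, RT1-Db1, RT1-DMa, RT1-DMb, Cd74 and Ciita. Every probe set that the probe gene table gives to exactly 1 of these symbols was taken, which yielded 14 of the 31042 probe sets tested and 8 of the 14217 genes with a symbol of their own. RT1-Ba had 4 of these probe sets, RT1-Bb, RT1-Db1 and Ciita had 2 each, and the other 4 genes had 1. The study placed 2 sutures at 1.5 mm from the limbus to start an inflammatory response that precedes new vessel growth, and compared topical treatments of the sutured eye. All animals were male Wistar rats of 12 to 16 weeks, and RNA of 16 corneas was measured on 1 Affymetrix array each, with 4 corneas in each group. Naive corneas had neither suture nor treatment. The 3 sutured groups received goat IgG as a sham, a rat-specific anti-Vegf antibody, or dexamethasone at 1 mg/ml, as 4 drops per day for 2 days. The antibody dose is 20 µg/ml in the methods of the study and 20 mg/ml in the sample labels, and the labels of the sham group name an anti-IgG antibody where the treatment text names goat IgG. The methods describe the harvested piece as the part from the sutures to the temporal limbus, whereas the labels describe the cornea without its scleral rim. Untreated sutured corneas were not among these groups, so every sutured group differs from naive corneas by suture and eye drops together. Each array is a whole piece of tissue, and in such bulk samples fewer cells of a type and less RNA per cell cannot be told apart.

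MHC class II molecules are pairs of an α and a β chain that carry peptides from engulfed proteins to the surface of dendritic cells, macrophages and B cells, where CD4+ T cells read them. In the rat the classical pairs are RT1-B (RT1-Ba with RT1-Bb) and RT1-D (RT1-Da with RT1-Db1). Cd74, the invariant chain, occupies the groove during assembly, and the RT1-DM pair (RT1-DMa with RT1-DMb) exchanges its remnant for a peptide in the endosome. Ciita is the coactivator that switches the whole set on. It binds no DNA itself and is recruited by RFX, CREB and NF-Y proteins that sit on the X and Y boxes upstream of these genes. In other inflamed tissues interferon gamma is a known inducer of Ciita. The normal cornea holds few class II positive cells, mostly dendritic cells and macrophages.

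The X and Y box letters upstream of the members are shown here because they are where the proteins that recruit Ciita are known to bind. Of the 8 genes, 6 had a window of 250 bases before to 50 bases after the start in the RefSeq promoter table (build GRCr8, a Brown Norway genome, so not the strain of these animals). In 5 of them the letters GNNACNG, an X1 box pattern, were followed on the same strand by the letters GATTGG, the Y box that NF-Y binds, with 24 or 25 bases between them. The capitals mark these letters, each stretch is written 5′ to 3′ on the strand of its gene, and all 5 stretches lie before the annotated start.
RT1-Ba, chr20:4576969-4577030, plus strand: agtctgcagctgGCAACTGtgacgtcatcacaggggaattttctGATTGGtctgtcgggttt
RT1-Da, chr20:4515321-4515382, plus strand: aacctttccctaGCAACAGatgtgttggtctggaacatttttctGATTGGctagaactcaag
RT1-Bb, chr20:4604163-4604223, minus strand: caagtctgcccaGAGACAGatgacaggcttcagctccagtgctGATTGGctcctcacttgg
RT1-Db1, chr20:4560226-4560286, minus strand: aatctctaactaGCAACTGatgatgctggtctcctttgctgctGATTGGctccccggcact
RT1-DMa, chr20:4712383-4712444, minus strand: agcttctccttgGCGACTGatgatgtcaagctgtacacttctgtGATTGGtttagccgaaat

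Both strands were searched. Over all 33469 promoter windows, GATTGG was present in 14.8% and GNNACNG in 88.1%, while the pair with 15 to 35 bases between them was present in 1.5%. The X2 letters TGACGTCA, to which CREB proteins bind, were found in 1.83% of all windows and in 1 of the 6, that of RT1-Ba, where they begin right after the X1 letters. The window of Cd74 held GNNACNG but not GATTGG. These letters were chosen with the windows of the 6 genes in view, and a match describes the letters only.

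The normalization had set the array medians nearly equal, between 6.548 and 6.614 on the log2 scale. The poly-A controls, bacterial RNAs added before labelling, divided the groups. Their mean log2 signal was 5.10 ± 0.11 in naive and 5.17 ± 0.16 in dexamethasone arrays, and 7.08 ± 0.27 in IgG and 6.88 ± 0.12 in anti-Vegf arrays (SD, n = 4 each). The difference between 5′ and 3′ probe sets of Gapdh, a sign of RNA length, was −0.39 ± 0.07 for dexamethasone and −0.30 ± 0.15 for naive arrays, and −0.08 ± 0.05 for IgG and −0.11 ± 0.04 for anti-Vegf arrays (SD, n = 4 each). Krt12, the keratin of the corneal epithelium, lay between 14.65 and 14.79 on all 16 arrays, so the labelled tissue carried its defining marker throughout.

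Class II genes were higher in all 3 sutured groups than in naive corneas. Of the 14 probe sets, 9 passed after IgG, 8 after anti-Vegf and 8 after dexamethasone, all upward (limma, at least 1.5-fold, Benjamini-Hochberg adjusted p under 0.05). In each comparison they covered 7 of the 8 genes, where a gene counts if any of its probe sets passed. Read from the brightest probe set alone, Ciita passed in none of the 3 and RT1-Bb did not pass with IgG. Read in that way, 11.3%, 12.8% and 12.6% of all genes were called with IgG, anti-Vegf and dexamethasone, in either direction. Among all probe sets the share called higher was 5.26% for IgG, 5.29% for anti-Vegf and 5.41% for dexamethasone. The median log2 change over the 14 was 1.43, 1.45 and 1.09, against −0.014, −0.015 and −0.023 over all probe sets. Every probe set that passed had 4 sutured arrays above all 4 naive arrays. The calls rest on the same values, so this is not separate support, and its share over all probe sets is not given. For RT1-Bb 1371065_at with IgG the gap was narrow, with 3.91 on F22 against 3.78 on Cont 4. RT1-DMa was the gene without a passing probe set in any of the 3. The comparisons share the same 4 naive arrays, so their results are set side by side and not counted as independent. The poly-A controls of the dexamethasone group differed from naive arrays by 0.07 (exact permutation test, two-sided, p = 0.54). In the IgG and anti-Vegf groups these controls differed from naive arrays by 1.98 and 1.78 (exact permutation test, p = 0.029 each, the smallest that 4 against 4 allows). Their part in the 3 comparisons with naive was not tested.

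**Figure D1:**
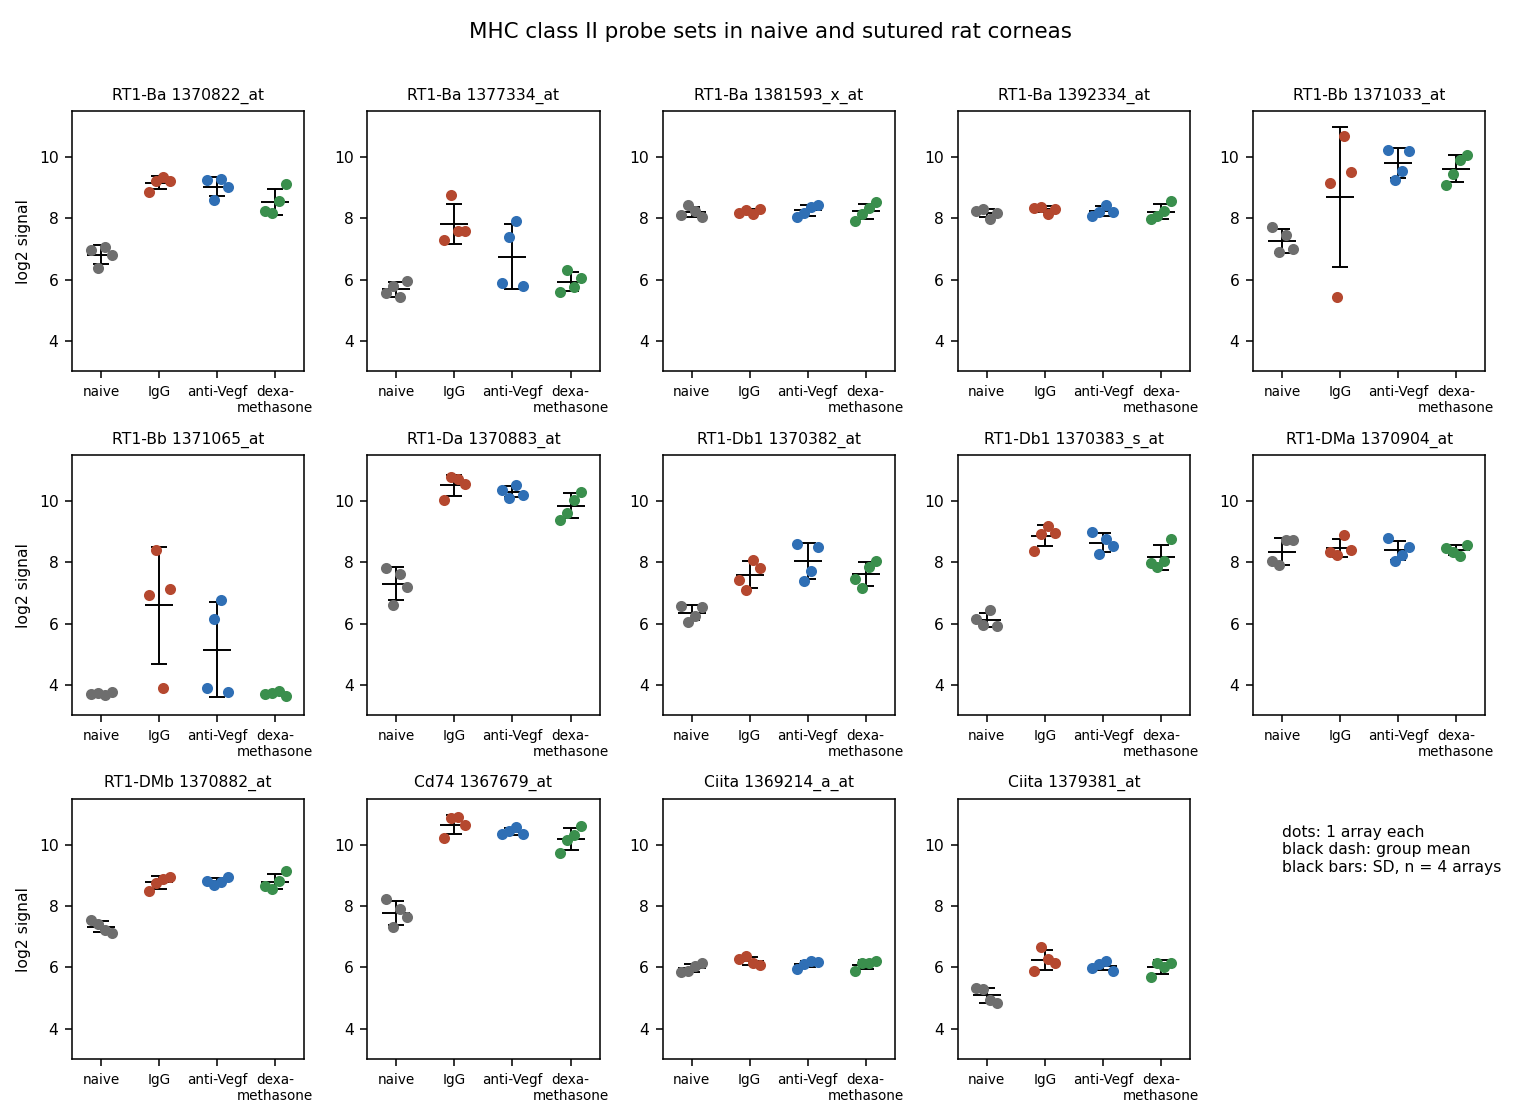
Log2 signal (vertical axis) of each of the 14 MHC class II probe sets on every array, by group (horizontal axis). Dots are single arrays, and black dashes and bars are the mean and SD of 4 arrays. The probe sets of Cd74, RT1-Da and RT1-DMb lie higher on all 12 sutured arrays than on any naive array, while RT1-DMa lies between 7.90 and 8.89 throughout and the 2 RT1-Bb probe sets spread widely within the IgG group.

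The invariant chain gene Cd74 had the largest change against naive after RT1-Da in each sutured group. Its log2 signal was 8.24, 7.32, 7.90 and 7.66 in the naive corneas. In IgG treated corneas it was 10.24, 10.87, 10.90 and 10.64, in anti-Vegf treated corneas 10.34, 10.44, 10.58 and 10.34, and in dexamethasone treated corneas 9.73, 10.15, 10.31 and 10.61. The lowest sutured cornea thus stood well above the highest naive one. The log2 change against naive was 2.88 in IgG (7.37-fold, adjusted p = 9.66e-08 by limma), 2.64 in anti-Vegf (6.24-fold, adjusted p = 2.04e-07) and 2.42 in dexamethasone (5.34-fold, adjusted p = 6e-07), each with a standard error of 0.20.

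RT1-Da, the α chain of the RT1-D pair, showed the largest change against naive of the 14 probe sets in each sutured group. Its log2 signal was 7.81, 6.60, 7.61 and 7.20 in naive corneas. It was 10.03, 10.77, 10.73 and 10.54 with IgG, 10.37, 10.11, 10.53 and 10.21 with anti-Vegf, and 9.39, 9.62, 10.04 and 10.30 with dexamethasone. The sutured and naive arrays did not overlap, and the lowest 2 sutured values were both from dexamethasone treated corneas. The log2 change was 3.21 with IgG (9.26-fold, adjusted p = 2.48e-07 by limma), 3.00 with anti-Vegf (8.01-fold, adjusted p = 4.91e-07) and 2.53 with dexamethasone (5.79-fold, adjusted p = 3.02e-06), each with a standard error of 0.245. RT1-Da is among the genes that the study lists as lower with dexamethasone than with IgG, so its choice here does not stand apart from these arrays.

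The β chain of the same pair, RT1-Db1, has 2 probe sets, and they gave different orders of the treatments. On 1370383_s_at the log2 signal was 6.14, 5.94, 6.43 and 5.92 in naive, 8.38, 8.93, 9.19 and 8.94 with IgG, 9.0, 8.26, 8.76 and 8.53 with anti-Vegf, and 7.99, 7.86, 8.04 and 8.75 with dexamethasone. IgG was highest on average here, and the rises against naive were 2.76, 2.53 and 2.05 (standard error 0.21 each, adjusted p = 2.41e-07, 5.98e-07 and 5.13e-06 by limma). On 1370382_at the values were 6.56, 6.06, 6.24 and 6.54 in naive, 7.42, 7.08, 8.06 and 7.82 with IgG, 8.59, 7.40, 7.71 and 8.50 with anti-Vegf, and 7.46, 7.15, 7.83 and 8.04 with dexamethasone. Anti-Vegf was highest on average on this probe set, and the rises were smaller, at 1.25, 1.70 and 1.27 (standard error 0.27 each, adjusted p = 0.00281, 0.000239 and 0.00271 by limma). Both probe sets put every sutured cornea above every naive one. The suffixes _s_at and _x_at mark probe sets whose probes can also match similar transcripts, so in this gene family the signal of such a probe set may not come from 1 gene alone.

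RT1-Ba, the α chain of the RT1-B pair, was read by 4 probe sets that fell into different patterns. On 1370822_at naive corneas gave 6.98, 6.37, 7.07 and 6.80, IgG 8.87, 9.23, 9.35 and 9.21, anti-Vegf 9.24, 8.60, 9.28 and 9.02, and dexamethasone 8.25, 8.18, 8.58 and 9.13. All sutured arrays lay above all naive arrays, with log2 changes of 2.36, 2.23 and 1.73 (standard error 0.21 each, adjusted p = 1e-06, 1.81e-06 and 2.26e-05 by limma). On 1377334_at naive corneas gave 5.55, 5.79, 5.42 and 5.95, IgG 7.28, 8.77, 7.58 and 7.60, anti-Vegf 5.89, 7.40, 7.91 and 5.79, and dexamethasone 5.61, 6.32, 5.77 and 6.04. The IgG arrays stood clear of naive (2.13, standard error 0.41, adjusted p = 0.00115 by limma), 2 of the 4 anti-Vegf arrays did, and the dexamethasone arrays overlapped with naive (0.26, 95% interval −0.61 to 1.12). The anti-Vegf change on this probe set was 1.07 (adjusted p = 0.0647), and it passed when array F1x (1.36, adjusted p = 0.0256) or F7 (1.39, adjusted p = 0.0211) was left out of the limma fit. The remaining pair, 1381593_x_at and 1392334_at, lay between 7.92 and 8.55 on all 16 arrays, with changes against naive of 0.01 to 0.11 and intervals within −0.26 and 0.36.

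RT1-Bb, the β chain that pairs with RT1-Ba, gave the widest spread within groups. On 1371033_at the log2 signal was 7.73, 6.89, 7.45 and 7.0 in naive, 10.22, 9.25, 9.55 and 10.20 with anti-Vegf, and 9.10, 9.44, 9.89 and 10.06 with dexamethasone. In the IgG group 3 arrays gave 9.16, 10.68 and 9.50, whereas array F19 gave 5.42, below every naive cornea. The change was 2.54 with anti-Vegf (standard error 0.74, adjusted p = 0.0176 by limma) and 2.36 with dexamethasone (adjusted p = 0.0301). With IgG it was 1.42 with a 95% interval of −0.14 to 2.99 (adjusted p = 0.173), which became 2.51 (adjusted p = 0.000161) without F19 and 0.76 (adjusted p = 0.483) without F22. The dexamethasone call on 1371033_at ended when any of F26, F27, F30, Cont 2R, Cont 3 or Cont 4 was left out, with changes of 2.21 to 2.42 and adjusted p of 0.051 to 0.0738 by limma.

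The second RT1-Bb probe set, 1371065_at, ran the other way. It was near 3.7 on the naive arrays (3.71, 3.73, 3.67 and 3.78) and equally low on the dexamethasone arrays (3.69, 3.74, 3.81 and 3.65). The IgG arrays gave 6.93 on F17, 8.40 on F19, 3.91 on F22 and 7.12 on F23, and the anti-Vegf arrays 3.88 on F1x, 6.14 on F2, 6.78 on F6 and 3.75 on F7. Within a treatment group an array was therefore either near the naive level or far above it, with nothing between 3.91 and 6.14. The IgG change against naive was 2.87 (standard error 0.76, adjusted p = 0.0101 by limma), with 2.26 (adjusted p = 0.0371) without F19 and 3.76 (adjusted p = 0.000386) without F22, and the anti-Vegf change was 1.41 (adjusted p = 0.191). The arrays with the highest signal on 1371065_at were not those with the highest on 1371033_at. On 1371033_at, F22, F1x and F7 had the 3 highest values, at 10.68, 10.22 and 10.20, and F19 the lowest. Over the 12 sutured arrays Pearson's r between the 2 RT1-Bb probe sets was −0.69, and between 1371065_at and RT1-Ba 1377334_at it was 0.87, a description of arrays that share groups and normalization.

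A class I probe set, RT1-A 1370429_at, which was picked after its values were seen, divided the arrays at the same place as 1371065_at. It gave 7.51 on F17, 7.83 on F19, 7.64 on F23, 7.16 on F2 and 7.22 on F6, and 5.38 to 6.27 on the other 11 arrays. F22, F1x and F7 gave 5.92, 6.06 and 5.98. A probe set that the table gives to both RT1-A3 and RT1-A2, 1370428_x_at, followed this division only in part. Its anti-Vegf arrays divided in the same way, with 10.67 on F2 and 10.81 on F6 against 5.91 on F1x and 4.91 on F7. Its IgG arrays did not, since F22 gave 10.96 and was high like F17, F19 (11.83) and F23 (11.2). The naive arrays divided too, with 8.87 on Cont 2R and 10.01 on Cont 4 against 5.35 on Cont 1 and 4.85 on Cont 3. Among the dexamethasone arrays F26 gave 10.34, against 4.56 to 4.99 on the others. Whether the animals differ in their RT1 sequences was not tested.

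**Figure D2:**
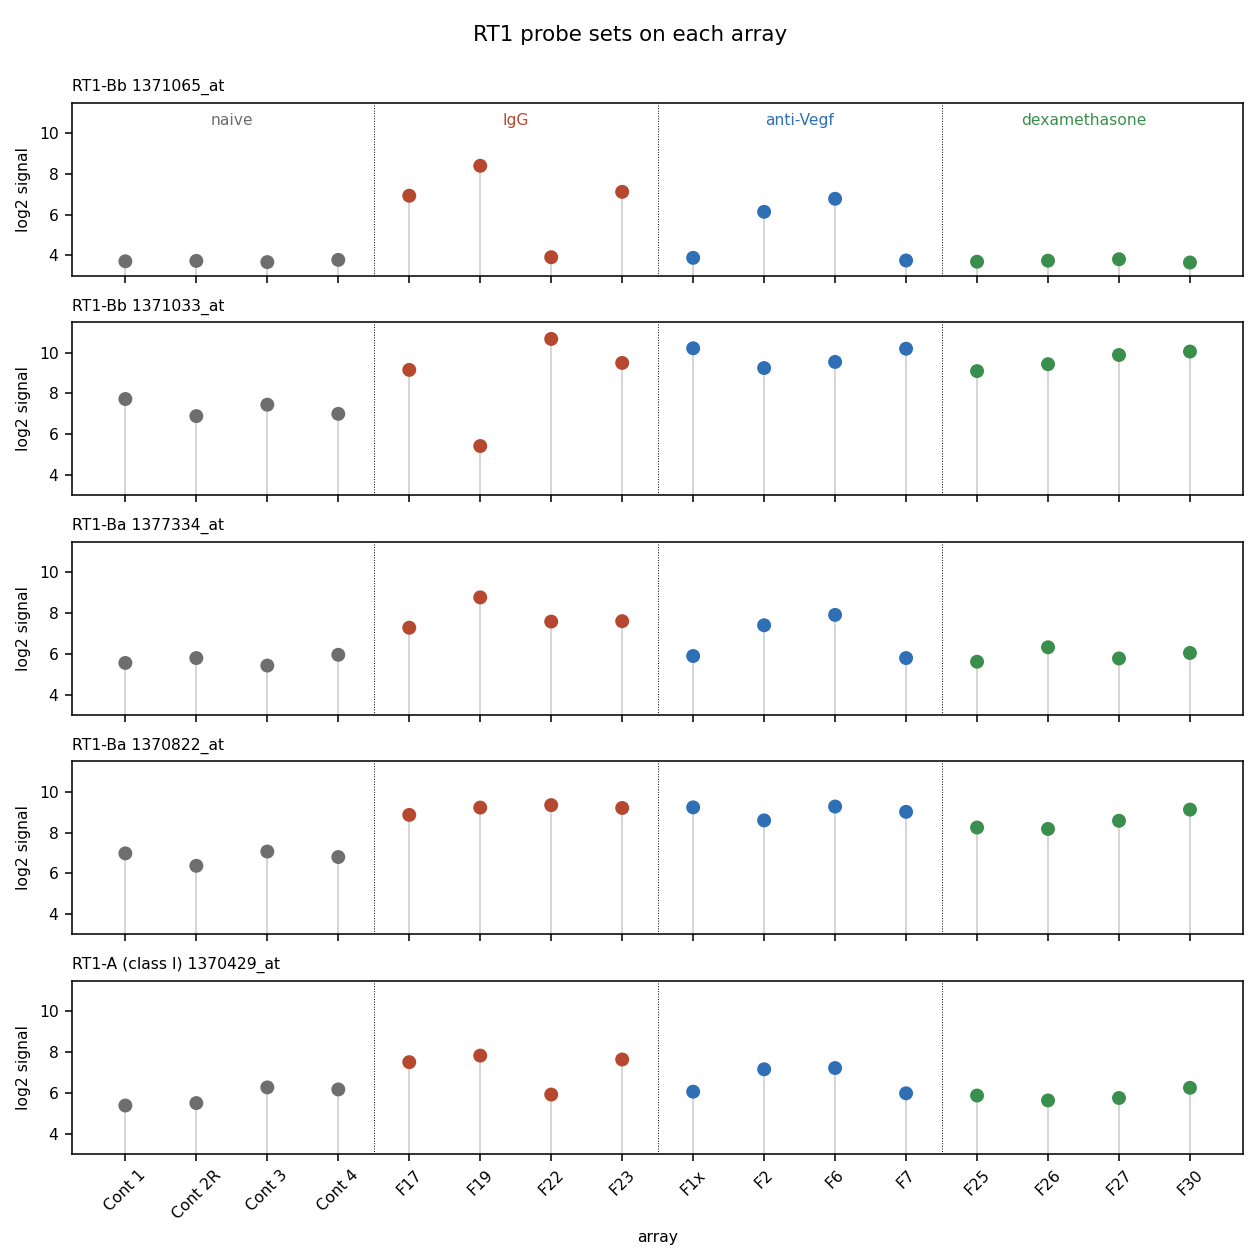
Log2 signal (vertical axis) of the 2 RT1-Bb probe sets, 2 RT1-Ba probe sets and the class I probe set RT1-A 1370429_at on each of the 16 arrays (horizontal axis, by group). RT1-Bb 1371065_at is above 6 on F17, F19, F23, F2 and F6 and below 4 on all others. RT1-A 1370429_at is above 7 on the same 5 arrays, and RT1-Bb 1371033_at is lowest on F19. RT1-Ba 1370822_at lies between 8.18 and 9.35 on the sutured arrays, with its lowest values there on dexamethasone arrays.

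The 2 genes of the RT1-DM pair, which loads peptides, have 1 probe set each, and these parted. RT1-DMb rose from 7.55, 7.41, 7.22 and 7.14 in naive corneas to 8.50, 8.74, 8.90 and 8.95 with IgG, 8.83, 8.69, 8.79 and 8.94 with anti-Vegf, and 8.67, 8.57, 8.81 and 9.16 with dexamethasone. Its sutured values were the most even of the members that rose, and the changes were 1.44, 1.48 and 1.47 (standard error 0.13 each, adjusted p = 1.59e-06, 1.11e-06 and 1.33e-06 by limma). RT1-DMa was 8.04, 7.90, 8.73 and 8.73 in naive, 8.34, 8.25, 8.89 and 8.40 with IgG, 8.78, 8.05, 8.22 and 8.49 with anti-Vegf, and 8.48, 8.35, 8.20 and 8.55 with dexamethasone. The naive corneas alone spanned most of that range. Its changes were 0.12 (95% interval −0.31 to 0.55), 0.03 (−0.39 to 0.46) and 0.04 (−0.39 to 0.47). On this probe set a change of the size of RT1-DMb lies outside all 3 intervals. RT1-Ba and Ciita had flat probe sets beside ones that passed, so a flat probe set alone does not show that RT1-DMa was unchanged.

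Ciita, the coactivator, passed on 1 of its 2 probe sets. On 1379381_at naive corneas gave 5.32, 5.28, 4.93 and 4.83, IgG 5.87, 6.66, 6.27 and 6.13, anti-Vegf 5.98, 6.11, 6.22 and 5.90, and dexamethasone 5.69, 6.16, 6.01 and 6.16. All sutured arrays were above all naive arrays. The changes were 1.14, 0.96 and 0.91 (standard error 0.16 each, 2.20-, 1.95- and 1.89-fold, adjusted p = 9.26e-05, 0.000343 and 0.000601 by limma). On 1369214_a_at the values lay between 5.86 and 6.36 on all 16 arrays and the groups overlapped, with changes of 0.23, 0.13 and 0.11 (adjusted p = 0.0896, 0.351 and 0.476).

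Dexamethasone treated corneas were then compared with the other sutured groups. Against IgG, 3 of the 14 probe sets passed, all lower, where 4.56% of all probe sets were called lower: RT1-Bb 1371065_at, RT1-Ba 1377334_at and RT1-Db1 1370383_s_at (limma, adjusted p under 0.05). The difference for RT1-Bb 1371065_at was −2.87 (standard error 0.76, adjusted p = 0.025) and for RT1-Ba 1377334_at −1.87 (standard error 0.41, adjusted p = 0.00899), and on both the anti-Vegf arrays fell into high and low values. RT1-Db1 1370383_s_at differed by −0.70 (standard error 0.21, adjusted p = 0.0442, 0.614-fold), although F30, at 8.75, overlapped with the IgG arrays. RT1-Da, Cd74 and the other responsive RT1-Ba probe set did not pass: RT1-Da differed by −0.68 (95% interval −1.20 to −0.16, adjusted p = 0.0936), RT1-Ba 1370822_at by −0.63 (−1.07 to −0.19, adjusted p = 0.0655) and Cd74 by −0.47 (−0.89 to −0.04, adjusted p = 0.157). The study lists RT1-Da as lower with dexamethasone than with IgG, and here its unadjusted p was 0.0138 by limma. RT1-DMb and RT1-Db1 1370382_at had differences of 0.03 and 0.02, with intervals of −0.25 to 0.30 and −0.55 to 0.60. At an unadjusted p under 0.05 there were 6 of 14, against 24.6% of all probe sets, and the median difference was −0.17 against 0.005 over all probe sets.

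Leaving out single arrays ended 2 of these 3 calls. The RT1-Bb call ended without F17 (−2.75, adjusted p = 0.0623 by limma), F19 (−2.26, 0.0831), F23 (−2.69, 0.0642), F26 (−2.87, 0.057) or F27 (−2.90, 0.055), and without F22 the difference was −3.76 (0.0021). The RT1-Db1 call ended without F19, F22, F23, F25, F26 or F27, with differences of −0.68 to −0.59 and adjusted p of 0.0947 to 0.127. Without F30, the dexamethasone array that was highest for 12 of the 14 probe sets, 5 probe sets passed, with RT1-Ba 1370822_at at −0.83 (adjusted p = 0.0128) and RT1-Da at −0.83 (adjusted p = 0.0482) added. The RT1-Ba 1377334_at call held without any 1 of the 8 arrays. The poly-A controls were lower in dexamethasone than in IgG arrays by 1.91 and the Gapdh 5′ minus 3′ difference was lower by 0.31 (−1.91 and −0.31, exact permutation test, two-sided, p = 0.029 each), and their part in these differences was not tested.

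Against anti-Vegf, 0 of the 14 probe sets passed in dexamethasone treated corneas (limma), where 3.31% of all probe sets were called lower, and 2 had an unadjusted p under 0.05, against 21.6% of all probe sets. These were RT1-Ba 1370822_at, at −0.50 (95% interval −0.94 to −0.06), and RT1-Db1 1370383_s_at, at −0.47 (−0.92 to −0.03). The estimate was below 0 for 13 of the 14, with a median of −0.20 against 0.005 over all probe sets. Without F30, 1 of the 14 passed, RT1-Ba 1370822_at (−0.70, adjusted p = 0.0409). RT1-Da differed by −0.47 (−0.99 to 0.05) and Cd74 by −0.23 (−0.65 to 0.20). The poly-A controls and the Gapdh 5′ minus 3′ difference were lower in dexamethasone than in anti-Vegf arrays (−1.71 and −0.27, exact permutation test, two-sided, p = 0.029 each). Their part in these differences was not tested. Between anti-Vegf and IgG, 0 of the 14 and 0.0% of all 31042 probe sets passed by limma. At an unadjusted p under 0.05 there was 1 member probe set, RT1-Ba 1377334_at (−1.06, 95% interval −1.93 to −0.20), where 5.74% of all probe sets reached that limit. The intervals for Cd74 (−0.66 to 0.18) and RT1-Da (−0.73 to 0.31) leave room for differences of either sign.

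**Figure D3:**
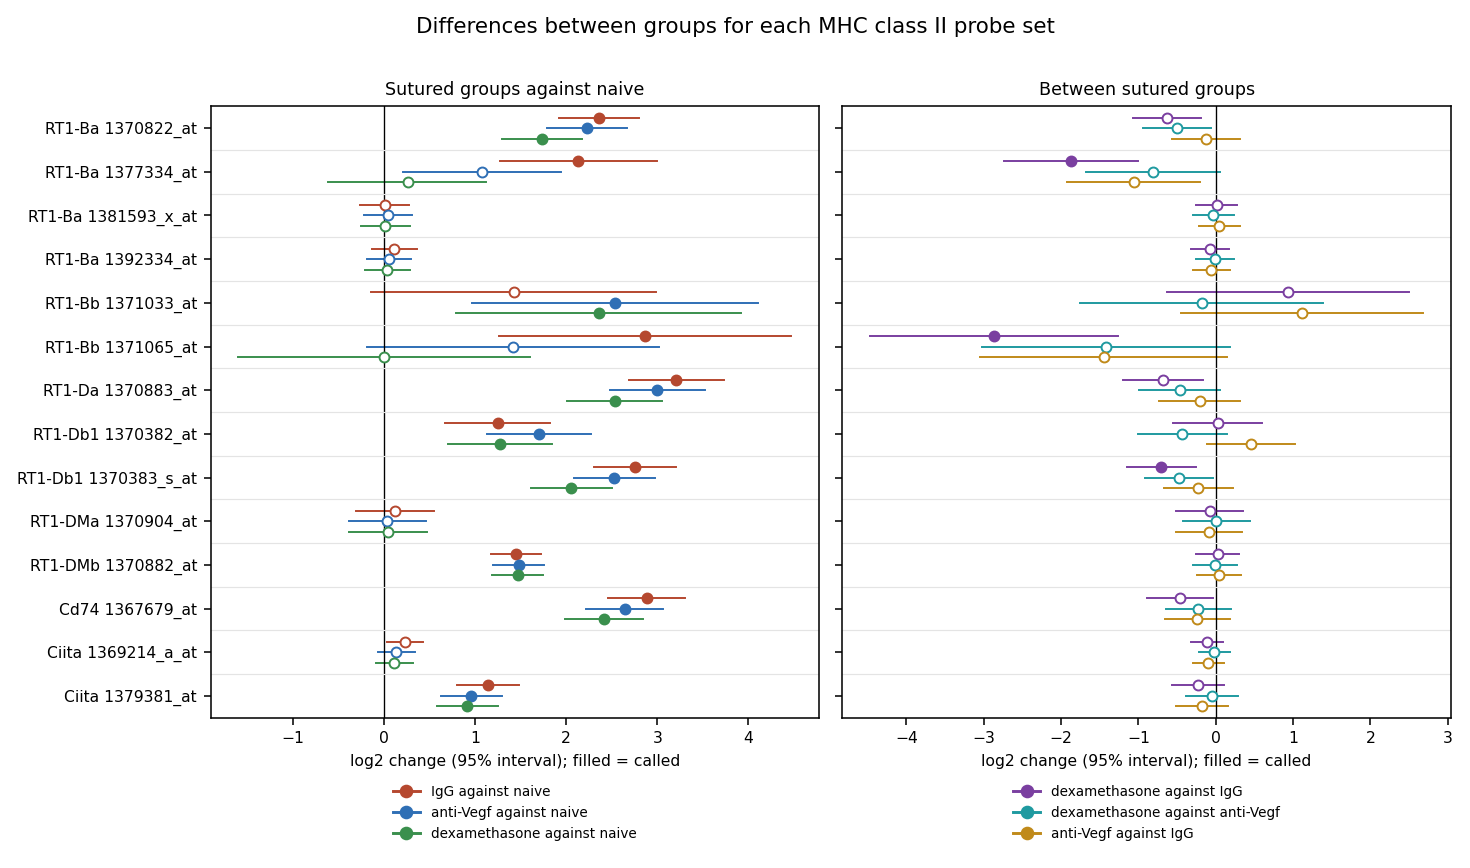
Log2 change with its 95% interval (horizontal axis) for each of the 14 MHC class II probe sets (vertical axis), for the sutured groups against naive on the left and between sutured groups on the right. Filled points passed the limits of the comparison: 9, 8 and 8 probe sets against naive, 3 for dexamethasone against IgG and none for the remaining pair of comparisons.

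The order of the group means was naive, dexamethasone, anti-Vegf, IgG from lowest to highest for 8 of the 14 probe sets, among them Cd74, RT1-Da, RT1-Db1 1370383_s_at, RT1-Ba 1370822_at and both of Ciita. In that order only the step from naive to dexamethasone passed a test for any of them, and the steps from dexamethasone to anti-Vegf and from anti-Vegf to IgG passed for none. Another 4 probe sets, RT1-Bb 1371033_at, RT1-Db1 1370382_at, RT1-DMb and RT1-Ba 1381593_x_at, had anti-Vegf highest and IgG directly above naive. Within the dexamethasone group F30 was highest for 12 of the 14 and F25 lowest for 8. Over the 12 sutured arrays, RT1-Ba 1370822_at ran with RT1-Db1 1370383_s_at (Pearson's r = 0.96) and RT1-Da (0.93), and RT1-Da with Cd74 (0.94). Cd74 ran with Ciita 1379381_at at 0.82 and with Ciita 1369214_a_at at 0.60. These are descriptions, since the arrays share groups and 1 normalization.

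The genes most like the class II profile were sought by Pearson's r with the mean of the 8 centred members, each read from its brightest probe set. For Ciita this was 1369214_a_at, which passed in no comparison, and for RT1-Bb 1371033_at, with 5.42 on F19. Over the 12 sutured arrays 1371033_at had r of −0.01 with RT1-Ba 1370822_at, −0.17 with RT1-Da and −0.20 with Cd74. The mean thus mixes unlike patterns, and the list over sutured arrays depends on that choice of probe sets. Over the 12 sutured arrays they were Il1rl2, the interleukin-36 receptor (0.91), followed by 1700122O11Rikl, Disp2, Vash2, Tsga13, Limd2, Camk1, Ccr10, Rbm44 and Ramp3, with r down to 0.81. Over all 16 arrays, where the gap between naive and sutured corneas weighs most, they were Fkbp1a (0.98), Tubb2a, Limd2, Pabpc4, F2r, Arpc1b, Ifi30, Plau, Ccl2 and Icam1, with r down to 0.96. Limd2 stood in both lists. Ifi30 is the lysosomal thiol reductase that opens proteins for class II loading, Icam1 an adhesion molecule of antigen-presenting and endothelial cells, and Ccl2 a monocyte chemokine.

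Other genes of the pathway were read from fixed lists, each gene from its brightest probe set. Among all genes the share called in either direction was 11.3% for IgG, 12.8% for anti-Vegf and 12.6% for dexamethasone against naive, 10.6% for dexamethasone against IgG and 7.13% against anti-Vegf. Of 5 further class II genes, RT1-DOa and RT1-DOb included, 0 could be read from a probe set with their symbol alone. The 7 factors that bind the X and Y boxes passed in 0 comparisons with naive, with median changes of −0.22, −0.12 and 0.00. The 3 subunits of NF-Y had an adjusted p under 0.05 with IgG by limma, but their changes, −0.29 for Nfya, −0.25 for Nfyb and −0.22 for Nfyc, were under the fold limit. Nfya was higher with dexamethasone than with IgG by 0.35 (adjusted p = 0.0216 by limma) and than with anti-Vegf by 0.34 (adjusted p = 0.0329). Nfyc had the highest mean signal of the list, 9.82, and Rfx5, the DNA-binding subunit of RFX, had changes of 0.01, 0.08 and 0.06 against naive.

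On the interferon gamma route to Ciita, 7 of 8 listed genes were measured. Ifngr1, the ligand-binding receptor chain, rose by 2.05, 1.92 and 1.91 (adjusted p = 9.42e-08, 1.67e-07 and 1.98e-07 by limma), and the kinase Jak2 by 1.21, 1.01 and 1.06 (adjusted p = 2.78e-05, 0.000117 and 9.09e-05). Ifngr2, the second receptor chain, fell by 0.64 with anti-Vegf and by 0.60 with dexamethasone, and its change with IgG, −0.43, was under the fold limit. Ifng itself gave 3.14 to 3.54 on all 16 arrays, well below the array medians of 6.548 to 6.614. Whether a signal this low could show a change was not tested. Irf1, a transcription factor of the Ciita promoter, was lower with dexamethasone than with IgG by 0.63 (−0.63, adjusted p = 0.00502) and than with anti-Vegf by 0.68 (−0.68, adjusted p = 0.00513), while neither Ciita probe set passed in these comparisons.

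Of 7 measured genes of endosomal processing, 4 rose with IgG, 4 with anti-Vegf and 3 with dexamethasone. Ctss, the cathepsin that trims the invariant chain, rose by 1.24, 1.14 and 1.73, Lgmn by 1.28, 1.35 and 1.19 and Ifi30 by 1.20, 1.11 and 1.07, whereas Ctsd passed with IgG (0.98) and anti-Vegf (0.79) and not with dexamethasone (0.42). Ctss was the one gene of this list that passed between treatments, and it was higher with dexamethasone, by 0.49 against IgG (adjusted p = 0.0284 by limma) and 0.59 against anti-Vegf (adjusted p = 0.015), the opposite sign to the estimates for Cd74. Ctsl, with the highest mean signal of the list (14.1), had changes of 0.02 to 0.21. Of 4 measured genes of class II turnover and trafficking, Marchf1, a ubiquitin ligase that removes class II from the surface, rose by 1.51, 1.60 and 1.42 (adjusted p = 0.00101, 0.000586 and 0.00177 by limma). Marchf8, a related ligase with the highest mean signal of these 4, had changes of −0.30, −0.23 and −0.26, under the fold limit. The adaptor subunit Ap1s1 was lower with dexamethasone than with IgG (−0.45, adjusted p = 0.0192).

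None of the 4 measured costimulation genes (Cd80, Cd86, Cd40 and Icoslg) passed in any comparison by limma. Cd80 had an adjusted p of 0.0194, 0.019 and 0.0128 against naive with changes of 0.30, 0.31 and 0.34, under the fold limit, and Cd86, the ligand that shares its receptors, had changes of −0.27, −0.25 and −0.22. Cd4, the coreceptor that binds class II, had changes of 0.18, 0.04 and −0.10. The class I presentation list moved with class II: 8, 9 and 7 of 10 measured genes rose, with median changes of 0.82, 0.96 and 0.76, and 0 passed between sutured groups. B2m, the light chain of class I and the brightest of the list, rose by 1.00, 1.20 and 0.92, Psmb8 by 1.46, 1.53 and 1.18 and Psmb9 by 1.25, 1.50 and 1.25.

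**Figure D4:**
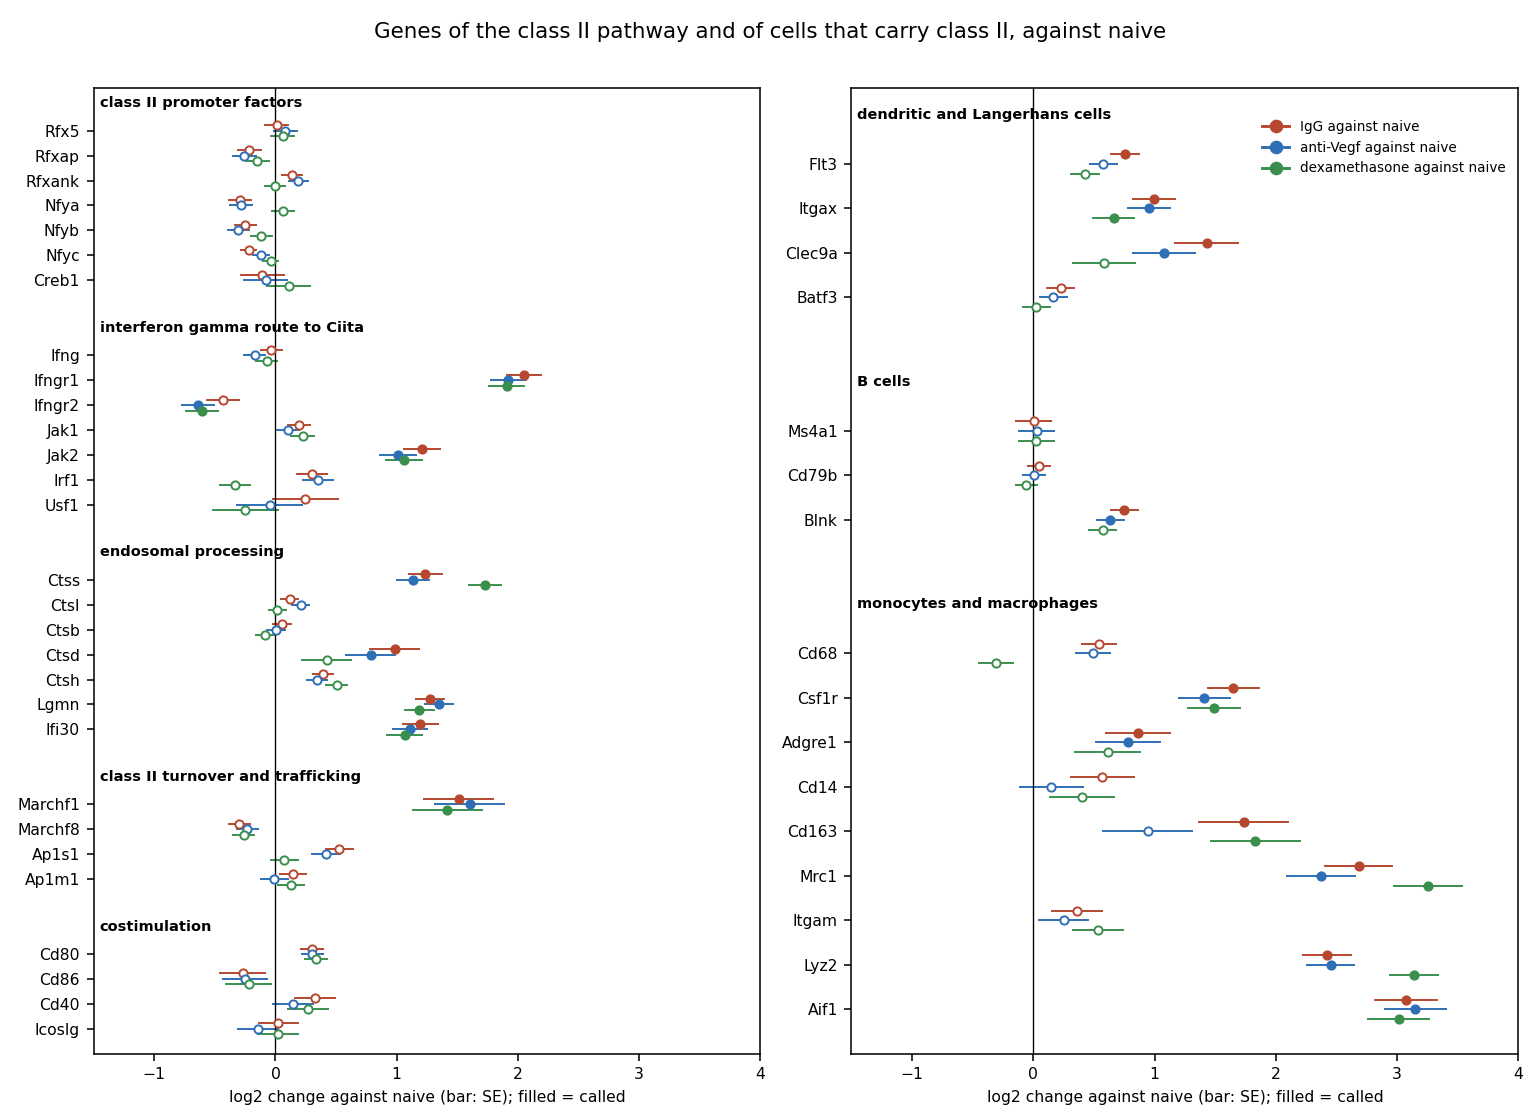
Log2 change against naive with its standard error (horizontal axis) for genes of the class II pathway on the left and for markers of dendritic cells, B cells and macrophages on the right (vertical axis), with 1 colour for each sutured group. Filled points passed the limits: Ifngr1, Jak2, Ctss, Lgmn, Ifi30, Marchf1, Itgax, Csf1r, Mrc1, Lyz2 and Aif1 in all 3 groups, and none of the promoter factors or costimulation genes.

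Markers of leukocytes, and some of those of macrophages and dendritic cells, were higher in the sutured corneas too. The 5 genes of all leukocytes had a mean log2 signal of 5.15 to 5.30 over the naive arrays, 7.14 to 7.48 with IgG, 7.26 to 7.38 with anti-Vegf and 6.62 to 7.45 with dexamethasone, and 4 of 5 rose in each group, Ptprc by 3.55, 3.78 and 3.48 and Cd53 by 3.82, 3.94 and 3.81. Their part in the rise of the class II genes was not tested. Of 9 measured monocyte and macrophage genes, 6, 5 and 5 rose, with array means of 6.08 to 6.56 in naive, 7.33 to 8.15 with IgG, 7.42 to 7.69 with anti-Vegf and 7.38 to 8.32 with dexamethasone. Aif1 rose by 3.07, 3.15 and 3.01, Mrc1 by 2.68, 2.37 and 3.26, and Csf1r by 1.65, 1.41 and 1.49. Between dexamethasone and IgG the list split, with Lyz2 higher (0.72, adjusted p = 0.0287 by limma) and Cd68 lower (−0.86, adjusted p = 0.00154).

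The dendritic and Langerhans cell list could be read for 4 of its 8 genes, with array means of 5.65 to 5.86 in naive, 6.33 to 6.92 with IgG, 6.40 to 6.55 with anti-Vegf and 5.91 to 6.33 with dexamethasone. Itgax rose by 1.00, 0.96 and 0.66. Clec9a, a receptor of cross-presenting dendritic cells, rose by 1.43 with IgG and 1.08 with anti-Vegf, had a change of 0.58 (adjusted p = 0.124) with dexamethasone, and was lower with dexamethasone than with IgG by 0.85 (−0.85, adjusted p = 0.0467 by limma). Flt3 rose by 0.76 with IgG, and its changes of 0.58 and 0.43 in the other groups were under the fold limit. Batf3, the brightest of the list, had changes of 0.23, 0.17 and 0.03. Clec9a was the 1 gene of these 4 that passed between dexamethasone and IgG, and Flt3, Itgax and Batf3 differed by −0.33, −0.33 and −0.20 (adjusted p = 0.0781, 0.246 and 0.288). Against anti-Vegf 0 of the 4 passed by limma, and 0 had an unadjusted p under 0.05. The part of these markers in the differences of the class II genes was not tested.

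The B cell markers Ms4a1 and Cd79b passed in no comparison: Ms4a1 lay between 4.49 and 5.25 and Cd79b between 4.92 and 5.34 over all 16 arrays, while Blnk, which macrophages also use, rose by 0.75 with IgG and 0.64 with anti-Vegf. Of 6 T cell genes Cd8a rose by 1.20, 1.06 and 0.80, and Cd3d (−0.43), Cd3e (−0.35) and Cd5 (−0.39) were lower with dexamethasone than with IgG (adjusted p = 0.00206, 0.0492 and 0.0228 by limma), while Cd2 passed in no comparison. All 4 measured neutrophil genes, cells that carry little class II, rose in each group, with a median change of 4.52, 4.21 and 4.04, and S100a9 by 6.33, 6.23 and 5.83. Of 3 vessel endothelium genes, Vwf fell by 0.71 with IgG and 0.75 with anti-Vegf, of 3 keratocyte genes Aldh1a1 fell by 1.19, 1.44 and 0.75, and 0 of 4 corneal epithelium genes passed.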

How the data were processed

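The authors deposited a log2 signal for every probe set, obtained by background correction, normalization between arrays and summary with RMA in the Affymetrix Expression Console. These values were used as deposited, without a further filter or pseudocount, and 0 sample columns were left out. Depth has no counterpart on arrays, and 4 arrays per group limit the precision. The 57 control probe sets were kept out of the tests. Groups came from the sample labels, and 31042 probe sets were fitted over all 16 arrays with limma 3.58.1 under R 4.3.3, using a mean for each group with 12 residual degrees of freedom, followed by Benjamini-Hochberg adjustment over all probe sets. The statistical test behind the study's own lists is not named in the labels or methods, and its limits (at least 1.5-fold, adjusted p under 0.05) were applied against naive corneas. Between treatments no fold limit was set. The methods place sutures in 1 eye of each animal. Their numbers per treatment group come to 1 rat for each cornea taken for arrays. In the sutured groups p-values thus measure the spread between corneas of different rats. For naive corneas the methods give no separate number of rats, and 1 rat for each was assumed. The methods name more corneas per group for RNA than the 4 arrays analysed here, and state that these 4 met a limit on RNA integrity. Control probe sets were compared by two-sided exact permutation tests over arrays.

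Members and gene lists were chosen with earlier results of these data known. Every member probe set is named, and of each list up to 4 called genes with the largest change and the gene with the highest mean signal, besides the 10 genes most like the class II profile and the markers of dendritic cells, B cells and macrophages. RT1-A probe sets, Cd80, Cd86, Cd4 and a few other listed genes were named after their values were seen. Genes of a list were read from their brightest probe set among those with 1 symbol. Alternatives were the compared groups only, robust moderation with a mean-variance trend, weighting of arrays, cyclic loess, centring on 7 reference genes of 10 listed, a filter that kept 19642 probe sets above the 40th percentile on at least 4 arrays, no fold limit, averaging of all probe sets of a gene, and leaving out each array. The fit was tested on simulated data. Promoter windows are from RefSeq (GRCr8). Python 3.11.15, pandas 2.3.3 and matplotlib 3.10.9 handled tables and plots. Array scans and the study's protein and qPCR data were not analysed here.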

Additional observations from a re-analysis of the deposited data

How the results depend on the processing

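The 28 member results that passed were refitted under 14 or 15 alternative settings each. Of the 411 values this gave over all results, 388 kept the call, 23 lost it and 0 changed sign. The calls lost were those of RT1-Bb 1371033_at (dexamethasone against naive), RT1-Bb 1371065_at and RT1-Db1 1370383_s_at (dexamethasone against IgG), and, with all probe sets of a gene averaged, RT1-Ba 1370822_at with dexamethasone (0.51) and Ciita 1379381_at with anti-Vegf (0.55) and dexamethasone (0.51), all 3 then under the fold limit. The number of member probe sets called for dexamethasone against IgG, 3 as reported, was 5 with array weights and ranged from 1 to 5 when 1 array was left out. For dexamethasone against anti-Vegf it ranged from 0 to 1 and for anti-Vegf against IgG it was 0 throughout. Against naive it ranged over these fits from 9 to 10 with IgG, 8 to 9 with anti-Vegf and 7 to 8 with dexamethasone. Of 825 values for the 56 results that did not pass, 18 passed and 99 changed sign. No paired analysis was possible because the labels give no shared replicate numbers. Signal over background could not be judged, since the deposited values carry no detection calls.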
